A study of Mus musculus with 69 samples.

Results

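Gene expression in the lung was compared 1 day after instillation between mice given NRCWE-002, a titanium dioxide (TiO2) nanoparticle with a positively charged surface, and mice given NRCWE-001, the unmodified particle without that charge. The day 1 arrays of both particles were taken by their labels, which gave 30 of the 69 arrays of the series, 15 per particle, and no measured value was used to choose them. The mice were female C57BL/6, obtained at 5 to 7 weeks of age and acclimatised for 1 to 3 weeks. Each mouse received 1 dose of 18, 54 or 162 µg into the trachea, with 5 mice in each of the 6 groups, and the particles were suspended in water with 2% serum. The 5 vehicle mice of day 1 received the suspension liquid alone and are given for reference. The labels name the particles only as unmodified and modified, the charge is stated by the study, and neither describes the modification further. The comparison asked which classes of genes differed between the charged and the unmodified particle at matched dose and time, and how far the slide that carried an array accounted for it.

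Neat1 is a long non-coding RNA that stays in the nucleus and forms the scaffold of paraspeckles, bodies that hold RNA and splicing proteins and that grow under many kinds of stress. Snhg20 is a long non-coding transcript that hosts a small nucleolar RNA, while Rsrp1 and Luc7l3 encode proteins rich in arginine and serine, the class to which the SR proteins that guide splice site choice belong. Tagln, Myl9 and Cnn1 encode transgelin, a regulatory myosin light chain and calponin, proteins of the contractile apparatus of smooth muscle in airways and vessels. In RNA of whole lung tissue, fewer cells of a type and less RNA per cell cannot be told apart.

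Every array held the RNA of 1 mouse in the red channel and a commercial mouse reference RNA in the green channel, without dye swaps, so a value is a log2 ratio to that reference and only differences between groups are compared. The RNA came from a small piece of frozen lung. The lung markers Sftpc, Sftpb, Sftpa1, Sftpd, Ager, Aqp5, Scgb1a1, Foxj1, Pecam1 and Cdh5 were well above background on all 30 arrays. A slide carries 4 arrays, and the 30 arrays lay on 11 of the 18 slides of the series, numbered here in the order of scanning. Only slides 12 and 14 carried both particles, with 8 arrays, whereas 4 slides carried NRCWE-001 alone and 5 carried NRCWE-002 alone. The NRCWE-001 arrays were scanned between day 0 and day 21 of the scanning, with a median of 8, and the NRCWE-002 arrays between day 14 and day 28, with a median of 21. Slides 11 and 12 stood apart, with 79.7% to 87.8% of spots well above background on their 5 arrays, against 62.5% to 74.2% on the 25 others.

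With dose as a term, 47 of 16916 genes differed between the particles at an adjusted p below 0.05 in the moderated test of limma, and most of them were lower in NRCWE-002 mice. The 41 genes called lower were 0.242% of those tested and the 6 called higher were 0.0355%. Differences were modest, with 0 called genes past 2-fold and a median size of 0.275 on the log2 scale for the lower genes and 0.217 for the higher ones. At an unadjusted p below 0.05, 7.4% of all genes were lower and 6.14% higher. The largest lower differences were those of Neat1, Snhg20 and Rsrp1, and the largest higher one was that of Tagln. The smallest adjusted p values, both 0.0058, belonged to Tagln and to Dusp12, a dual specificity phosphatase, which was lower by -0.22 ± 0.035 (SE) and was named for its p. The calls for the particle difference on day 1 moved with single arrays. They fell to 4 when replicate 1 of NRCWE-001 at 18 µg, or replicate 1 or 2 of it at 54 µg, was left out, and came to 176 when the fifth NRCWE-002 mouse of 162 µg was left out. After quantile normalization between arrays there were 95, of which 65 were lower and 30 higher.

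Neat1 set the NRCWE-001 mice of the lower doses apart. At 18 µg its log2 ratio was 1.45, 1.28, 1.30, 1.75 and 1.61 in NRCWE-001 mice and 0.13, 0.69, 0.87, 0.29 and 0.32 in NRCWE-002 mice. At 54 µg it was 1.54, 1.90, 1.64, 1.59 and 1.86 with NRCWE-001 and 0.17, -0.73, 0.95, 0.23 and 0.32 with NRCWE-002. The particle groups did not overlap at either dose. At 162 µg it was 0.15, 0.31, 0.61, 0.15 and 0.51 with NRCWE-001 and -1.29, -0.20, 0.47, 0.40 and 0.90 with NRCWE-002, and these groups overlapped. Vehicle mice had 0.37, 0.90, 0.37, 0.35 and 0.11, so the 10 NRCWE-001 mice of 18 and 54 µg all lay above every vehicle mouse, and the other groups overlapped with vehicle. With dose as a term Neat1 was lower in NRCWE-002 mice by -0.94 ± 0.18 (SE, n = 15 and 15), with an adjusted p of 0.025 in limma.

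Snhg20, Rsrp1 and Luc7l3 were also separated between the particles at the lower doses. At 54 µg Snhg20 was -0.39, -0.44, -0.75, -0.60 and -0.42 in NRCWE-001 mice and -1.61, -2.47, -1.48, -1.72 and -1.74 in NRCWE-002 mice. Rsrp1 was 0.80, 0.98, 0.76, 0.89 and 0.89 against -0.50, -0.88, 0.16, -0.55 and -0.53, and Luc7l3 was 0.56, 0.42, 0.30, 0.38 and 0.30 against -0.63, -0.62, -0.13, -0.21 and -0.21. Each of them was higher in all 5 NRCWE-001 mice than in any NRCWE-002 mouse of that dose. At 18 µg the groups did not overlap either, but the 95% interval of the difference included 0 for Rsrp1 (-0.86 to 0.061) and Luc7l3 (-0.56 to 0.0048), and the Luc7l3 values of NRCWE-001 mice, from 0.083 to 0.35, overlapped with those of vehicle mice, from -0.11 to 0.23. At 162 µg the NRCWE-001 values came down to between -1.88 and -1.41 for Snhg20 and to between -0.52 and -0.027 for Rsrp1, within the NRCWE-002 ranges of -3.08 to -1.09 and -1.81 to 0.30. With dose as a term the difference was -0.74 ± 0.15 for Snhg20, -0.70 ± 0.15 for Rsrp1 and -0.43 ± 0.087 for Luc7l3, with adjusted p values of 0.025, 0.036 and 0.025.

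**Figure D1:**
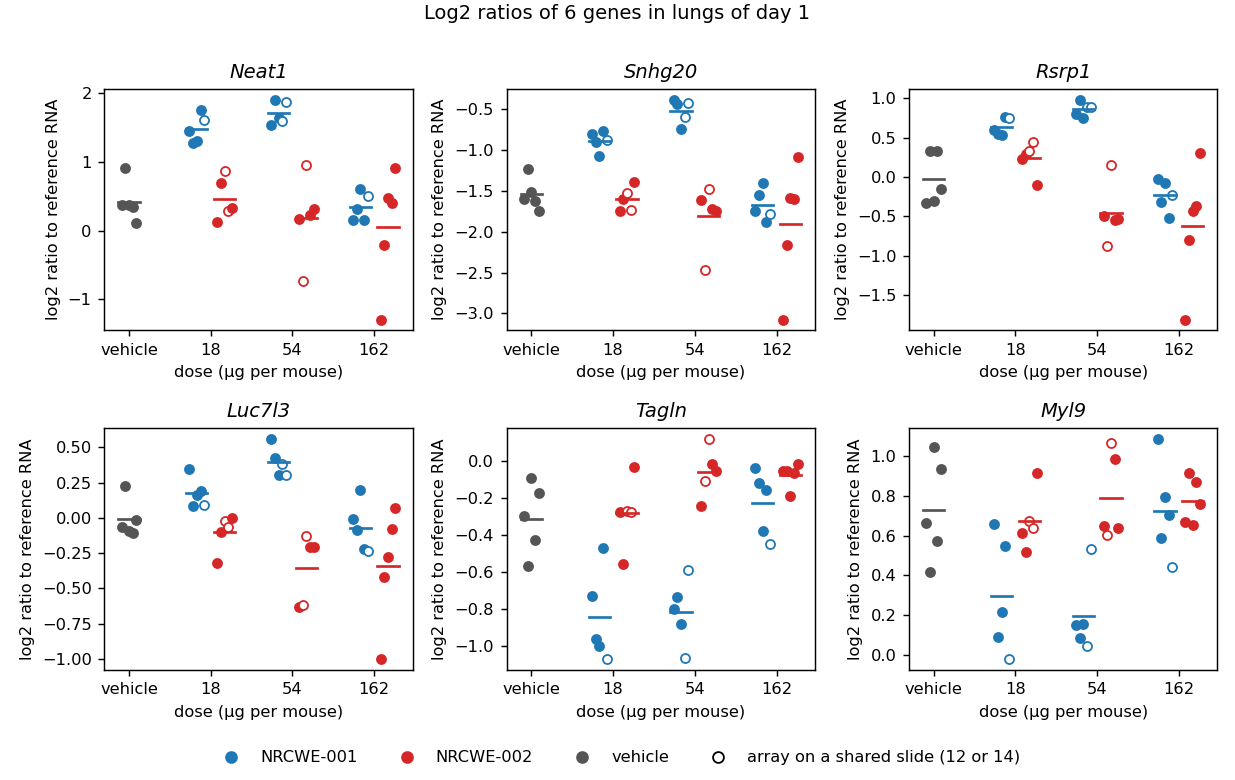
Log2 ratio to the reference RNA (vertical axes) of 6 genes in each day 1 mouse by dose (horizontal axes, µg per mouse), blue for NRCWE-001, red for NRCWE-002 and grey for vehicle, with open points for arrays on the shared slides and horizontal bars for group means. For Neat1, Snhg20 and Rsrp1 the NRCWE-001 mice of 54 µg lie above all NRCWE-002 mice of that dose, for Tagln they lie below them, and at 162 µg the particle groups overlap.

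For genes that differed in either direction, the RefSeq promoter table of build GRCm38.p6 was read for the 6 genes of that plot, from 250 bases before to 50 bases after the start of the transcript. It held Snhg20 (chr11:117076533-117076832, plus strand), Rsrp1 (chr4:134923375-134923674, plus strand), Luc7l3 (chr11:94321914-94322213, minus strand) and Myl9 (chr2:156775214-156775513, plus strand), shown here 5′ to 3′ on the strand of the gene so that the shared and the unlike stretches can be seen. Capitals mark the searched motifs on either strand: the Sp1-type GC box GGGCGG, the cyclic AMP response core TGACGT, the inverted CCAAT box GATTGG and the CArG box, the site of serum response factor.
Snhg20: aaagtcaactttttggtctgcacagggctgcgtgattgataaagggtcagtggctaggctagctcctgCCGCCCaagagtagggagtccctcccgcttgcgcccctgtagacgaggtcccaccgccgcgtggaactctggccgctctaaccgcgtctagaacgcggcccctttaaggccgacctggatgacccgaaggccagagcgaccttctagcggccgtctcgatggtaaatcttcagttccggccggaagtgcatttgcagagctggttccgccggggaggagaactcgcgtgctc
Rsrp1: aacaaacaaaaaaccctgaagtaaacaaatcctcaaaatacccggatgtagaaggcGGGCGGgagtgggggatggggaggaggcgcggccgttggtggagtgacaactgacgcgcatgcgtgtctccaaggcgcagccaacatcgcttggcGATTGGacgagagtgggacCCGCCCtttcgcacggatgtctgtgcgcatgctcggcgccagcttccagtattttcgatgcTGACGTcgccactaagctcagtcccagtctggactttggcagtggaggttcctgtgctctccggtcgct
Luc7l3: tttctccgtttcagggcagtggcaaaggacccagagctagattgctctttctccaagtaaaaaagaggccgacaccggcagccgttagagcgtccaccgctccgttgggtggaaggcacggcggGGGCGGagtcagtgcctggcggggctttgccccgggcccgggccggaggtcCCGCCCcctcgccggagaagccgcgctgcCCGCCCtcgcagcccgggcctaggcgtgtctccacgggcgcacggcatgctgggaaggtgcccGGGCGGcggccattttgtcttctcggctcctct
Myl9: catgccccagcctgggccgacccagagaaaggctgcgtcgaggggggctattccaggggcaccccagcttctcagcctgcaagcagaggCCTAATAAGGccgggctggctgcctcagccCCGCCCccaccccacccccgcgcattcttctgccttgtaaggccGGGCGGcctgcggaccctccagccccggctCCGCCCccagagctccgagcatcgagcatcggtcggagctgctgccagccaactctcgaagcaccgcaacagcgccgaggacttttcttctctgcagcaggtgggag

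The GC box was found once in the Snhg20 window, in its reverse form CCGCCC beginning 182 bases before the start, at 2 places in that of Rsrp1, at 4 in that of Luc7l3 and at 3 in that of Myl9. Rsrp1 alone among the 4 held TGACGT, 19 bases before its start, and GATTGG, 99 bases before it. Myl9 alone held a CArG box, CCTAATAAGG, 161 bases before the start. Of the 47 called genes, 40 had a window in the table. A GC box lay in 69.6% of the 46 windows of genes called lower, in 60.3% of those of tested genes that were well above background on all 30 arrays, in 53.8% of those of all tested genes and in 35.7% of all 32851 windows. The corresponding shares for genes called lower and for all windows were 6.52% and 7.51% for TGACGT, 15.2% and 16.1% for GATTGG and 2.17% and 1.63% for the CArG box. These matches describe the letters of the windows and mark no site.

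The other genes with the largest lower differences have varied functions. Klhdc8b, which encodes a kelch repeat protein, was lower by -0.48 ± 0.092, Tle2, a Groucho-type transcriptional corepressor, by -0.44 ± 0.099, and Mthfsd by -0.40 ± 0.070. D930048N14Rik, a transcript known by its clone name, was lower by -0.39 ± 0.079, B3gnt8, an enzyme that extends sugar chains on proteins, by -0.37 ± 0.082, and Lime1, an adaptor protein of lymphocyte receptor signalling, by -0.37 ± 0.078. At 54 µg Mthfsd was -0.80, -0.87, -1.05, -0.88 and -0.78 with NRCWE-001, -1.28, -1.76, -1.37, -1.69 and -1.39 with NRCWE-002, and between -1.48 and -1.21 in vehicle mice. All NRCWE-001 mice of that dose lay above the vehicle range and 2 of the NRCWE-002 mice lay below it. All 41 lower genes were well above background on all 30 arrays, which held for 76.9% of the genes tested. Of the 47 called genes, 39 were in none of the 48 gene lists examined.

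The difference was next taken at each dose in 1 fit of the 6 group means, as a set of 3 comparisons between the particles. At 54 µg, 86 genes were called, 82 of them lower (0.485% of those tested) and 4 higher (0.0236%), and 31 of the 86 were also called with dose as a term. Neat1 was lower by -1.52 ± 0.28, Rsrp1 by -1.32 ± 0.23 and Snhg20 by -1.29 ± 0.22, the 3 called genes past 2-fold. The 4 higher genes, named because they were few, were Tagln by 0.75 ± 0.11, Myl9 by 0.59 ± 0.13, Arhgap10 by 0.35 ± 0.083 and Hars by 0.28 ± 0.066. At 18 µg 1 gene was called (0.00591%), Endog, which encodes a mitochondrial endonuclease. Endog was 0.32, 0.22, 0.17, 0.23 and 0.33 in NRCWE-001 mice and -0.22, -0.34, -0.054, -0.21 and -0.30 in NRCWE-002 mice of that dose, a difference of -0.48 ± 0.080 with an adjusted p of 0.031 and no overlap between the groups. The call was lost when the 10 arrays of that dose were fitted alone or slide was a fixed block, and at 54 µg the 10 arrays alone called 27 genes. With slide as a fixed block 117 genes were called at 54 µg, 52 of them among the 86, and all 86 kept their direction at a median of 97.9% of their size. At 162 µg 0 genes passed in limma, and 472 had an unadjusted p below 0.05.

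A test of whether the particle difference changed with dose passed 0 genes in limma, and 876 had an unadjusted p below 0.05. The smallest p values in it belonged to Mfsd2a, a lysophospholipid transporter, Cpt1a, the carnitine palmitoyltransferase of fatty acid oxidation, and Ccar1, each with an adjusted p of 0.435. The same test called 2 genes when slide was a fixed block. Differences at single doses are therefore given side by side. For the 41 genes called lower with dose as a term, the median difference was -0.284 at 18 µg, -0.388 at 54 µg and -0.123 at 162 µg, and 41, 41 and 40 of them were lower at these doses. For the 82 genes called lower at 54 µg the medians were -0.245, -0.48 and -0.0634, with 81 lower at 18 µg and 56 lower at 162 µg, the 54 µg value being the one that chose them. At 162 µg the 95% interval of the difference ran from -0.86 to 0.28 for Neat1, from -0.68 to 0.23 for Snhg20, from -0.85 to 0.076 for Rsrp1 and from -0.067 to 0.37 for Tagln, so each interval included 0.

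All 5 NRCWE-002 mice lay below all 5 NRCWE-001 mice in 32 of the 41 lower genes at 54 µg, in 23 at 18 µg and in 0 at 162 µg, where 1.98%, 1.17% and 0.26% of all genes did so. These genes were chosen on the same arrays, so the counts describe them. Both particles were then set against the same 5 vehicle mice. The median of group minus vehicle over the 41 genes was 0.229, 0.349 and -0.0435 for NRCWE-001 at 18, 54 and 162 µg, and -0.0615, -0.135 and -0.151 for NRCWE-002. Of the 41 genes, 38 and 40 had a higher mean than vehicle in NRCWE-001 mice at 18 and 54 µg, and 18 at 162 µg, while 32, 35 and 39 had a lower mean than vehicle in NRCWE-002 mice in order of dose. At 18 and 54 µg the NRCWE-001 median lay farther from vehicle, and at 162 µg the NRCWE-002 median did. Over all genes these medians lay between -0.00118 and 0.0189.

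**Figure D2:**
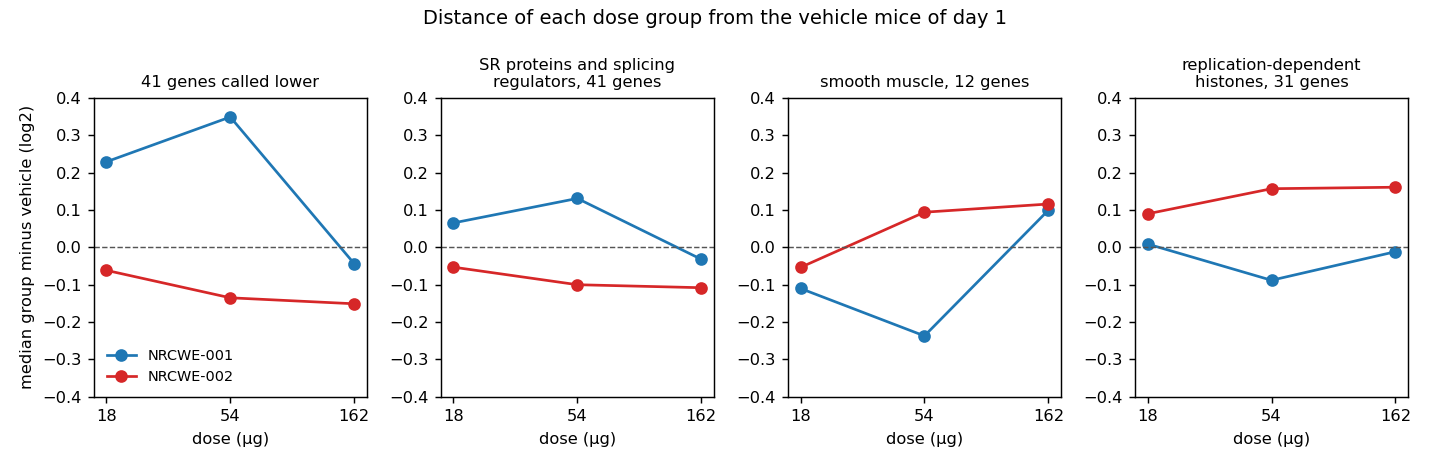
Median over the genes of a set of the group mean minus the vehicle mean (vertical axes, log2) by dose (horizontal axes, µg), blue for NRCWE-001 and red for NRCWE-002, for the 41 genes called lower and for 3 gene lists. The NRCWE-001 line of the called genes stands at 0.229 and 0.349 at 18 and 54 µg and at -0.0435 at 162 µg, while the NRCWE-002 line runs from -0.0615 to -0.151. The same 5 vehicle mice serve both lines.

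The same order could be read inside slides. Slides 1, 3 and 5 each carried NRCWE-001 mice of all 3 doses and a vehicle mouse, and the 18 and 54 µg arrays both exceeded the 162 µg and the vehicle array in 33, 28 and 28 of the 41 genes (80.5%, 68.3% and 68.3%), against 18%, 14.8% and 15.7% of all genes. On slides 8 and 18, which carried the same 4 kinds of mice for NRCWE-002, this held for 5 and 3 of the 41 genes (12.2% and 7.32%), against 17.1% and 16.5% of all genes. The exposed mice of these slides were among those that chose the 41 genes, so the shares only describe the genes. On slide 1, Neat1 was 1.45 at 18 µg, 1.54 at 54 µg, 0.15 at 162 µg and 0.37 in the vehicle mouse, and on slide 18 it was 0.32, 0.32, 0.47 and 0.11.

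Of 41 tested SR proteins and other splicing regulators, 37 were lower in NRCWE-002 mice and 4 higher, with a median of -0.116 against 0.000872 over all genes, of which 8382 were lower and 8534 higher. At an unadjusted p below 0.05, 21 were lower (51.2%, against 7.4% of all genes) and 0 higher, but only Luc7l3 and Rsrp1 were called. The next member, Hnrnph1, a regulator of alternative splicing, differed by -0.33 ± 0.077 (adjusted p = 0.051). In NRCWE-001 mice it ran from 0.20 to 0.87 with a median of 0.58, and in NRCWE-002 mice from -0.20 to 0.51 with a median of 0.23, so the particles overlapped. The vehicle mice of slides 8 and 18, which carried NRCWE-002 mice, were also lower in Hnrnph1 than those of slides 1, 3 and 5, by -0.39. At 54 µg, 3 list members were called lower and 10 had all NRCWE-002 mice below all NRCWE-001 mice, 24.4% of the list against 1.98% of all genes. The median of group minus vehicle was 0.0654, 0.131 and -0.0319 for NRCWE-001 and -0.053, -0.1 and -0.108 for NRCWE-002 in order of dose. With slide as a fixed block the median of the list was -0.11, with 28 of 41 lower, and on the shared slides it was -0.12, with 30 lower. The vehicle mice of slides 8 and 18, compared with those of slides 1, 3 and 5, gave a list median of -0.0781, against -0.0113 over all genes.

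Among long non-coding and snoRNA host transcripts, 14 of the 30 listed could be tested, and 10 of the 14 were lower, with a median of -0.134. Neat1 and Snhg20 were called. At an unadjusted p below 0.05, 8 members were lower (57.1%) and 2 higher (14.3%), against 7.4% and 6.14% of all genes. Meg3, an imprinted non-coding RNA, differed by -0.23 ± 0.065 without being called (adjusted p = 0.10). Its NRCWE-001 mice of 18 µg ran from 0.29 to 0.68 and the NRCWE-002 mice from -0.19 to 0.11, whereas at 162 µg the ranges were -0.043 to 0.27 and -0.024 to 0.32. Malat1, a nuclear non-coding RNA encoded beside Neat1 and named for that reason after its value was seen, differed in the other direction, by 0.26 with an adjusted p of 0.33, while the vehicle mice of these slide sets differed by 0.31.

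Tagln, the 1 smooth muscle gene called with dose as a term, differed in the opposite direction. It was -0.73, -0.96, -0.999, -0.47 and -1.07 in NRCWE-001 mice of 18 µg and -0.28, -0.56, -0.27, -0.28 and -0.034 in NRCWE-002 mice. At 54 µg it was -0.80, -0.74, -0.88, -1.06 and -0.59 with NRCWE-001 and -0.24, -0.11, 0.12, -0.018 and -0.055 with NRCWE-002, while vehicle mice lay between -0.57 and -0.093. At 54 µg all NRCWE-001 mice were below every vehicle and every NRCWE-002 mouse, and at 162 µg, where they ran from -0.45 to -0.037, they overlapped with both. Over the doses Tagln was higher in NRCWE-002 mice by 0.49 ± 0.075 (adjusted p = 0.0058), and Myl9, at 0.34 ± 0.083, was not called (adjusted p = 0.062).

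Of the 12 smooth muscle genes 9 were higher, with a median of 0.108, and 1 was called. At an unadjusted p below 0.05, 4 were higher (33.3%, against 6.14% of all genes). Cnn1 differed by 0.48 ± 0.18 with an adjusted p of 0.22. The list median of group minus vehicle was -0.11, -0.237 and 0.0994 for NRCWE-001 and -0.0536, 0.0941 and 0.116 for NRCWE-002, and 11 of the 12 genes were below vehicle in NRCWE-001 mice of 54 µg. Genes of skeletal and heart muscle varied between single mice in the same lungs. The median difference of the 17 skeletal muscle genes was -1.87 at 18 µg, 0.709 at 54 µg and 0.265 at 162 µg, with 0 called, and Ckm, the muscle creatine kinase, ran from 0.20 to 5.48 among the 5 NRCWE-001 mice of 18 µg. Their part in the smooth muscle values was not tested.

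Replication-dependent histones, which are made mainly while DNA is copied, were higher in 23 of 31 genes, with a median of 0.114 and 0 called. At an unadjusted p below 0.05, 13 were higher (41.9%) and 1 lower (3.23%), against 6.14% and 7.4% of all genes. H4c6 differed by 0.32 ± 0.098, H4c1 by 0.30 ± 0.097 and H2ac18 by 0.23 ± 0.073, with adjusted p values of 0.145, 0.161 and 0.156. In NRCWE-001 mice H4c6 ran from -1.59 to -0.63 with a median of -1.07, and in NRCWE-002 mice from -1.20 to -0.24 with a median of -0.79, so the particles overlapped widely. The list median was 0.107 with slide as a fixed block and 0.106 on the shared slides. Genes of the cell cycle were higher in 22 of 25, with a median of 0.0812, led by Aurkb, a kinase of mitosis, at 0.29 ± 0.079 (adjusted p = 0.095), whose probe was well above background on 18 of 30 arrays. The median of that list was 0.226 with slide as a fixed block and -0.00605 on the 22 arrays of slides with 1 particle.

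Immediate early genes, the first transcribed after a stimulus, were higher in 20 of 25, with a median of 0.147 and 0 called. At an unadjusted p below 0.05, 7 were higher (28%, against 6.14% of all genes) and 0 lower. The transcription factor Egr1 had the largest t in the list, at 0.66 ± 0.20 (adjusted p = 0.144). At 18 µg it ran from -3.02 to -1.90 in NRCWE-001 mice and from -2.14 to -0.91 in NRCWE-002 mice, and at 162 µg from -2.59 to -0.97 and from -2.77 to -1.11. Dusp1, a phosphatase of MAP kinases, differed by 0.57 ± 0.21, and Fosl1, a subunit of AP-1, by 0.17 ± 0.070, with adjusted p values of 0.233 and 0.274. Group minus vehicle had list medians of 0.335, 0.309 and 0.117 for NRCWE-002 and 0.0688, 0.0645 and 0.182 for NRCWE-001. Heat shock chaperones went the other way, with 19 of 20 lower, a median of -0.077 and 0 called, the strongest being Ahsa1 at -0.12 ± 0.037 (adjusted p = 0.131). At an unadjusted p below 0.05, 3 of the 20 chaperones were lower (15%, against 7.4% of all genes). Under a fixed slide block 13 of the 20 were lower with a median of -0.0323, and on the shared slides 12 with a median of -0.0194.

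Lymphocyte markers differed little over all doses. Of 23 markers of T, B and NK cells 15 were lower, with a median of -0.0624 and 0 called. The median was -0.0926 at 18 µg, -0.184 at 54 µg and 0.137 at 162 µg, and at 54 µg 10 had an unadjusted p below 0.05, all lower, where 7.54% of all genes were lower at that level. Cd22, an inhibitory receptor of B cells, ran at that dose from 0.73 to 1.49 in NRCWE-001 mice, from 0.59 to 0.87 in NRCWE-002 mice and from 0.72 to 1.36 in vehicle mice. The particle groups overlapped. Among the genes called lower at 54 µg were Spib, a transcription factor of B cells and plasmacytoid dendritic cells, by -0.83 ± 0.17, and Fcrla, an Fc receptor-like protein of B cells, by -0.81 ± 0.19, both named after their values were seen.

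With slide as a fixed block over the 35 arrays of day 1, the 41 genes called lower had a median of 111% of their size and the 6 called higher 44.4%. Both sets were chosen on 30 of these arrays. Besides Tagln, the genes called higher were Rpgrip1 at 0.37 ± 0.075, the olfactory receptors Olfr1305 at 0.22 ± 0.049 and Olfr1036 at 0.20 ± 0.044, Scrt1, a repressor known from neurons, at 0.21 ± 0.044, and Trmt6, a subunit of a tRNA methyltransferase, at 0.17 ± 0.036. Rpgrip1 was 1.63 and 1.76 in the vehicle mice of slides 8 and 18, which also carried NRCWE-002 mice, and 1.18, 1.12 and 1.37 in the vehicle mice of slides 1, 3 and 5, which carried NRCWE-001 mice. The vehicle mice thus differed by 0.47 between these slides without any particle, and on the shared slides the particle difference of Rpgrip1 was 0.036 ± 0.092. Olfr1036 was above background on only 15 of 30 arrays, Scrt1 on 22 and Olfr1305 on 23.

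Olfactory receptors, which are not known for a role in lung tissue as a class, were higher in 268 of 422 with a median of 0.0155. At an unadjusted p below 0.05, 31 were higher (7.35%) and 8 lower (1.9%), against 6.14% and 7.4% of all genes. The median was -0.00387 with slide as a fixed block and -0.0048 on the shared slides. For all 6 higher genes, the difference between the vehicle mice of the particles' slides had the sign of the particle difference and a median of 70.9% of its size. For the 41 lower genes this held for 23, with a median of 19.5%. The share over all genes was not computed, so these counts only describe the called genes. The vehicle comparison has 2 arrays against 3, passed 0 genes in limma and had 973 at an unadjusted p below 0.05.

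**Figure D3:**
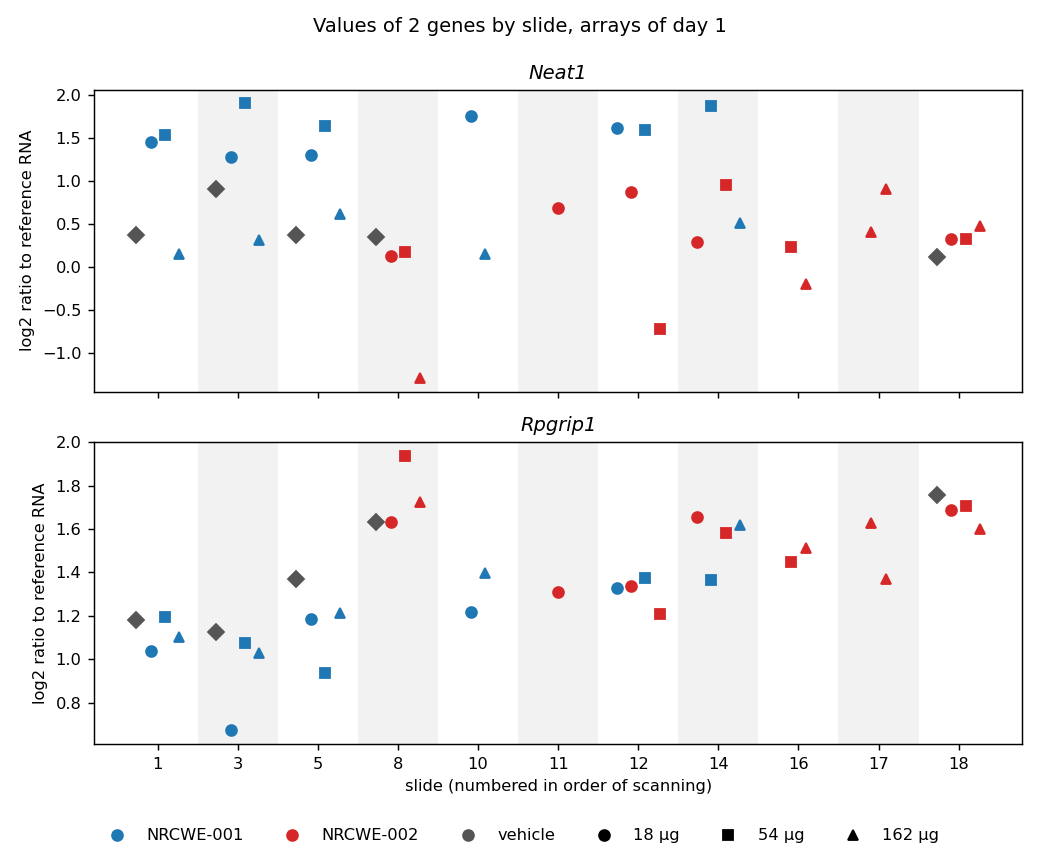
Log2 ratio (vertical axes) of Neat1 and Rpgrip1 on every day 1 array by slide in the order of scanning (horizontal axis), with colour for the particle and shape for the dose. On each slide that carried NRCWE-001 mice of 18 or 54 µg their Neat1 values lie between 1.28 and 1.90. The vehicle mice of NRCWE-002 slides are lower in Neat1 and higher in Rpgrip1 than those of NRCWE-001 slides. For exposed mice on slides with 1 particle, particle and slide cannot be told apart.

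Slide differences were large among mice of 1 particle. With dose as a term, limma called 652 genes (3.85%) between the 6 slides of NRCWE-001 and 1111 genes (6.57%) between the 7 slides of NRCWE-002. Slides took a median of 57.7% of the residual sum of squares within NRCWE-001 and 66.1% within NRCWE-002, where their degrees of freedom alone would give 41.7% and 50%. For the 47 called genes the medians were 51.4% and 53.3%. These genes were called without a slide term, which disfavours genes that vary between slides, so these medians only describe them. With the vehicle arrays kept to link slides, a fixed slide block left 37.8% of the information on the particle difference in the fit without slide. Without the vehicle arrays it left 25.8%.

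With that block over the 35 arrays of day 1, 32 genes were called (0.189%), 21 lower and 11 higher, and 8 of them were among the 47. The 41 lower genes kept their direction in all 41 cases, where 73.6% of all genes did. Of the 41, 29 were at least as large as without the block, with a median of 111% of the size. At an unadjusted p below 0.05, 40 of the 41 passed, where 5.79% of all genes were lower at that level. The 41 genes were chosen on 30 of these 35 arrays, so these counts only describe them. On the 8 arrays of slides 12 and 14 alone, limma called 0 genes, and 1367 had an unadjusted p below 0.05. The 41 genes were again all lower, at a median of 141% of their size, and 36 passed an unadjusted p below 0.05, against 4.91% of all genes that were lower at that level. As a random block slide left 2 calls, Tagln and Dusp12, and as a fixed block without the vehicle arrays 1, Retnla. The 8 arrays of slides 12 and 14 belong to the 30 that chose the genes, so their counts only describe these genes. These 8 arrays hold 2 NRCWE-001 and 2 NRCWE-002 mice of 54 µg, 1 and 2 of 18 µg and 1 and 0 of 162 µg. The 41 genes differed least at 162 µg, by a median of -0.123, so 141% is not a size at matched doses.

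With slide as a fixed block Tagln differed by 0.67 ± 0.11 (adjusted p = 0.020) and Snhg20 by -0.94 ± 0.19 (adjusted p = 0.046). Neat1 at -1.15 ± 0.25, Rsrp1 at -0.92 ± 0.22 and Luc7l3 at -0.47 ± 0.11 lost their calls, with adjusted p values of 0.062, 0.083 and 0.081. On the shared slides alone Neat1 differed by -1.48 ± 0.34, Snhg20 by -1.26 ± 0.21, Mthfsd by -0.68 ± 0.11 and Tagln by 0.77 ± 0.10. On slide 12, Neat1 was 1.61 and 1.59 in the NRCWE-001 mice of 18 and 54 µg and 0.87 and -0.73 in the NRCWE-002 mice of these doses. On slide 14 it was 1.86 in the NRCWE-001 mouse and 0.95 in the NRCWE-002 mouse of 54 µg. The 6 higher genes had a median of 40.2% of their size there, with Tagln alone larger than over all arrays and Olfr1036 at -0.016 ± 0.080. Without the shared slides, the other 22 arrays called 81 genes, 45 higher and 36 lower. Of these, 27 of the 36 lower and 36 of the 45 higher had the same direction on the shared slides, where 10 and 3 had an unadjusted p below 0.05, and over all genes 59.4% had the same direction in both sets of slides. The median difference of the lower ones was -0.301 on the 22 arrays that chose them and -0.107 on the shared slides. For the higher ones it was 0.272 and 0.0855.

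**Figure D4:**
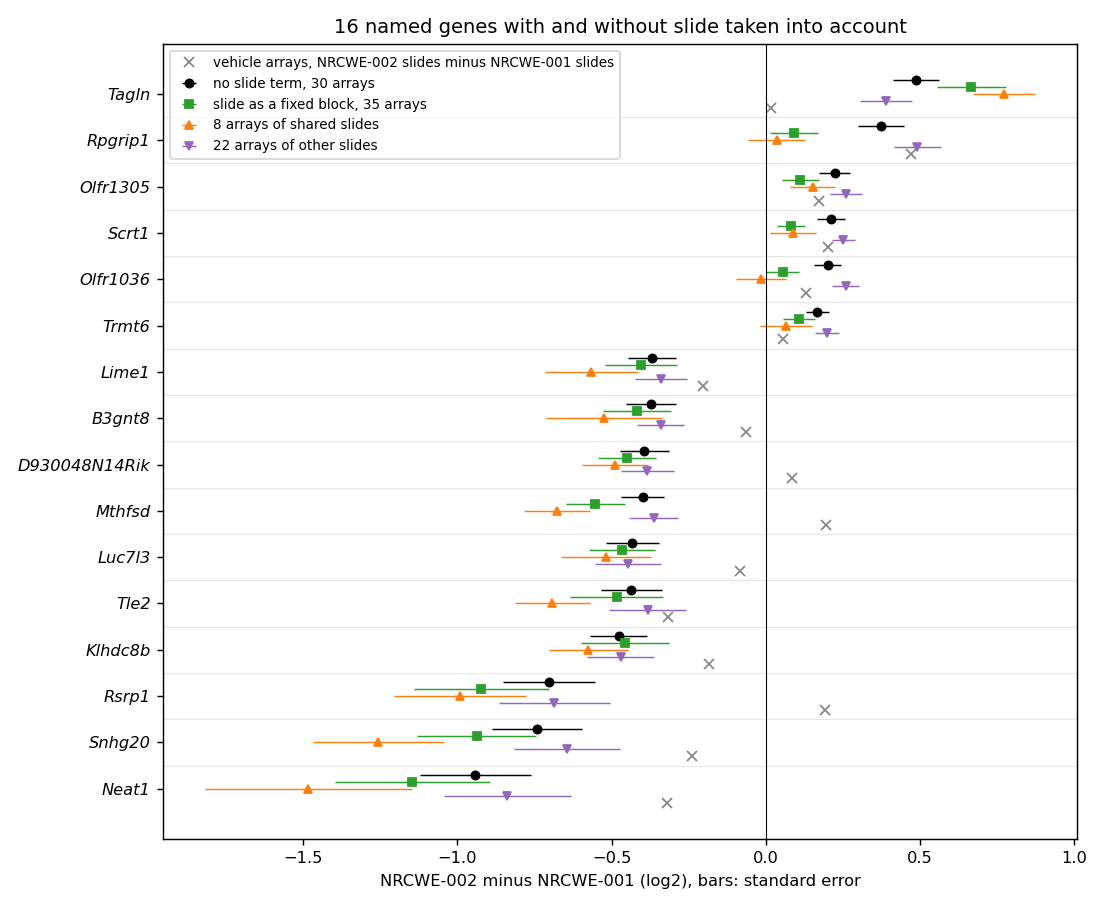
Difference NRCWE-002 minus NRCWE-001 (horizontal axis, log2, bars for the standard error) of 16 called genes without a slide term, with slide as a fixed block, on the 8 arrays of the shared slides and on the 22 other arrays, with crosses for the vehicle mice of NRCWE-002 slides minus those of NRCWE-001 slides. The 10 lower genes stay left of 0 under all 4 ways, Tagln stays right of it at 0.39 to 0.77, and Rpgrip1 falls from 0.37 to 0.036 on the shared slides, with its vehicle cross at 0.47.

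The slide block also called genes that the comparison without it did not. After Tagln, the higher ones with the smallest p were Ppib, a chaperone of the secretory pathway, by 0.26 ± 0.041, Retnla, a secreted product of alternatively activated macrophages and airway epithelium, by 1.36 ± 0.24, the anion exchanger Slc26a4 by 1.77 ± 0.35 and the chemokine Ccl17 by 1.18 ± 0.24. For Retnla the 4 NRCWE-001 mice of the shared slides had 3.15, 3.39, 3.63 and 3.34, and the other 11 NRCWE-001 mice ran from 3.79 to 5.77. The 4 NRCWE-002 mice of these slides had 4.26, 5.30, 5.34 and 5.53. These groups of 4 did not overlap. The values were read after the call, and which mice the call rests on was not tested. Slc26a4 was 1.44 in the 162 µg NRCWE-001 mouse of slide 14 and between 5.05 and 5.51 in the other 4 of its group. Leaving out slides 11 and 12, the slide block called 0 genes. Lower with the block were Dusp12, Hdac10, Gm11346, Mthfsd and Dhx16, by -0.29, -0.34, -0.50, -0.55 and -0.28, of which Dusp12, Hdac10 and Mthfsd were also called without it.

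Lists of the inflammatory response held 0 called genes over all doses without a slide term. Acute phase proteins were higher in 15 of 20 with a median of 0.136, chemokines in 23 of 33 with a median of 0.0907, and cytokine and NF-kB genes in 20 of 28 with a median of 0.0274. When slide was a fixed block 2 chemokines were called higher, Ccl17 and Ccl8, the latter by 1.21 ± 0.26 (adjusted p = 0.0498), and the chemokine median was 0.184, against -0.0453 on the 22 arrays of slides with 1 particle. Group minus vehicle over the acute phase list was 0.0783, 0.422 and 0.995 for NRCWE-001 and 0.0664, 0.866 and 1.08 for NRCWE-002 in order of dose. At 54 µg the list median of the particle difference was 0.475, with 4 of 20 at an unadjusted p below 0.05, all higher, where 3.36% of all genes were higher at that level, and 0 called. Ceruloplasmin (Cp), the member with the largest t, ran at 54 µg from -0.35 to 0.58 with NRCWE-001 and from 0.30 to 1.66 with NRCWE-002, a difference of 0.45 ± 0.20 over all doses (adjusted p = 0.323). With slide as a fixed block the median of the list was 0.469 with all 20 higher, and on the 22 arrays of slides with 1 particle it was -0.0799 with 14 lower. The 8 arrays of the shared slides, from mice of both particles, and the vehicle arrays enter the first value and not the second. The cause of the change was not tested.

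Among the other lists of immune cells, neutrophil markers had a median of -0.0237 in 18 genes and monocyte and macrophage markers of -0.0592 in 22, with 0 called in either, and with slide as a fixed block these medians were 0.0559 and 0.0404. Siglecf, a surface lectin of alveolar macrophages and eosinophils, had the largest t among the latter, at -0.49 ± 0.15 (adjusted p = 0.143), and ran at 54 µg from 1.88 to 2.32 with NRCWE-001 and from 1.08 to 1.36 with NRCWE-002, with vehicle mice between 1.75 and 2.84. The vehicle mice of both slide sets differed in it by -0.42. Interferon-stimulated genes were lower in 17 of 22 with a median of -0.0213, which was 0.0504 with that block. Markers of alveolar type 2 and type 1 epithelium and of endothelium had medians of 0.0449, 0.0331 and 0.0627. Club and airway secretory cells had the highest median of all lists, 0.201 in 15 genes with 12 higher and 0 called, and it was -0.0845 with slide as a fixed block. The 10 biclusters, gene sets that the study drew from other lung disease data, had 0 called members without a slide term and medians from -0.236 for Bicluster 9 to 0.11 for Bicluster 2. Under the slide block Retnla and Slc26a4, both of Bicluster 3, were called, and the median of Bicluster 9 was -0.753, against 0.018 without slides 11 and 12.

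**Figure D5:**
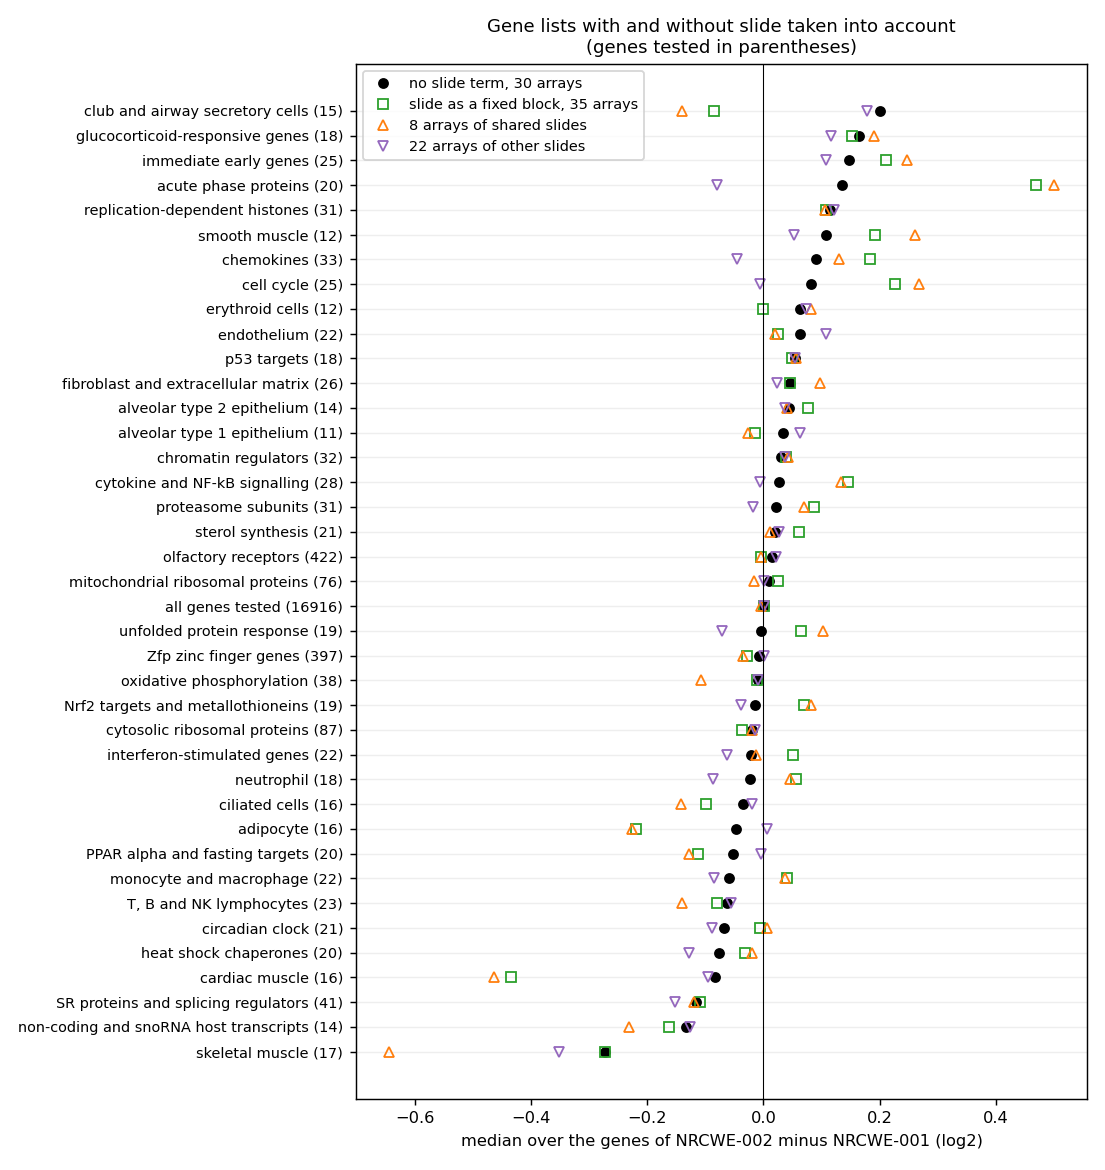
Median over the genes of each list of the difference NRCWE-002 minus NRCWE-001 (horizontal axis, log2), with the number of genes tested in parentheses, without a slide term, with slide as a fixed block, on the 8 arrays of the shared slides and on the 22 other arrays. Splicing regulators lie between -0.153 and -0.11 and histones between 0.106 and 0.122 under the 4 ways, while acute phase proteins range from -0.0799 to 0.501 and club cell genes from -0.141 to 0.201.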

How the data were processed

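Lung RNA of single mice was hybridised in the red channel (Cy5) against a commercial mouse reference RNA in the green channel (Cy3) on 2-colour Agilent arrays, 4 to a slide, without dye swaps. The log2 ratios deposited by the authors are LOWESS-normalized, and their scale and direction were checked against the scanner values (r from 0.988 to 0.995 per array). The deposited scanner files hold the spot intensity of both channels, written by Agilent Feature Extraction 11.0.1.1 per the file headers. They served to mark spots well above background and for alternatives with normexp correction (offset 50) and loess. Spots with a background over 10 median absolute deviations from the channel's median, 0 to 481 per array over both channels, were left out when the normexp parameters were estimated. Their values were kept. Spots flagged as outliers in the scanner files were left out of the values.

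Of 41174 probes, 27479 (66.7%) were given a symbol by matching the transcript accession in the scanner files to RefSeq, and the others were not used. A probe was kept if well above background in the red channel on at least 5 of 30 arrays, and a gene took the median of its probes (24753 probes, 16916 genes, 10911 of them with 1 probe). Different probes of 1 gene were also tested alone.

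NRCWE-002 was compared with NRCWE-001 in limma 3.58.1 (R 4.3.3) with dose as a factor, and a gene was called at a Benjamini-Hochberg adjusted p below 0.05. Single doses came from a fit of 6 group means. Slide, read from the scanner's name for each array, was added as a fixed block (with the 5 vehicle arrays) or a random block. Vehicle arrays of slides with NRCWE-002 and with NRCWE-001 were compared with each other. The main fit, with and without a fixed slide block, was tested on simulated data. A limit on false calls was set only for data simulated without a slide effect. The p-values measure the spread between these samples, 1 array per mouse, and without a slide term this spread includes differences between slides. Fits without a slide term treat arrays as independent, while the random block fit gave arrays of 1 slide a correlation of 0.288. The numbers of arrays and of slides limit the precision.

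Named were the 10 genes called in each direction with the largest difference, up to 3 members per list with the largest moderated t, the 5 with the smallest p in each direction with slide as a fixed block, up to 3 called per dose and the first 3 of the interaction. Genes outside this rule are given as such. The comparison, the genes and the 48 lists were chosen with earlier results of these data known. The values of 1 named gene are not reported here.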

Additional observations from a re-analysis of the deposited data

Results flagged for a closer look

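Single mice far from the other 4 of their group were looked for in 25 named genes and 7 groups of day 1. Of 175 gene and group pairs, 13 had a highest or lowest mouse whose gap to the next exceeded the 95% critical value of Dixon's test (0.71 of the range of the group), and chance flags about 1 in 20 groups.

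Slc26a4 stood out in 3 groups. It was 1.441 in replicate 5 of NRCWE-001 at 162 µg on slide 14, where the next mouse had 5.048, and 0.9038 in replicate 5 of NRCWE-001 at 18 µg on slide 12, where the next had 2.157. In replicate 5 of NRCWE-002 at 162 µg, on slide 17, it was 3.999 with the next at 5.159. Retnla was 3.148 in the same NRCWE-001 mouse of slide 14, with the next mouse of that dose at 5.179.

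Among the genes called lower, Snhg20 was -2.472 in replicate 2 of NRCWE-002 at 54 µg on slide 12, below the next value of -1.743. Lime1 was -1.13 in replicate 1 of NRCWE-002 at 162 µg, with the next at -0.3846, and -0.09707 in replicate 3 of NRCWE-001 at 162 µg, above the next at -0.2688. Tle2 was -0.5302 in replicate 3 of NRCWE-002 at 54 µg, above the next at -0.8005, D930048N14Rik was 0.6831 in replicate 5 of NRCWE-002 at 18 µg, above 0.4398, and Dusp12 was -0.7146 in replicate 4 of NRCWE-002 at 18 µg, below -0.5924. Luc7l3 was 0.2282 in the vehicle mouse of slide 3, above the next at -0.01426. Of the genes called higher, Tagln was -0.1887 and Scrt1 -0.2818 in replicate 3 of NRCWE-002 at 162 µg, on slide 18, below the next values of -0.0638 and -0.1021.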

How the results depend on the processing

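The particle difference on day 1, with dose as a term, called 47 genes. It called 22 from the scanner's processed signals, 95 after quantile normalization, 73 with probes above background on all 30 arrays, 89 with each probe alone, 19 in a fit of all 69 arrays, 86 with the vehicle arrays as a group, 99 with 6 group means and 2 without dose. With slide it called 1 (fixed block, 30 arrays), 0 (fixed block, 69 arrays), 2 (random block), 0 (mean per slide and particle), 0 on the shared slides and 81 on the other 22 arrays, 5 with scan day as a block, 4 with array position, 71 with an intensity trend, 313 with array weights and, chosen after seeing the data, 72 without slides 11 and 12. Leaving out 1 array or slide gave 0 to 228 calls, 0 without slide 5 or 14 and 228 without slide 17. Olfr1036 reversed on the shared slides, at -0.01645. The 32 calls with slide as a fixed block became 1 with 30 arrays, 0 without slides 11 and 12, 86 without the block and 0 on the shared slides, and 0 to 100 with 1 array left out, 0 without replicate 4 of NRCWE-001 or replicate 2 of NRCWE-002 at 54 µg.

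At 18 µg the 1 call became 0 with scanner signals, 0 with slide as a fixed block, 3 with a random block, 0 from 10 arrays alone and 0 to 5 with 1 array left out. At 54 µg the 86 calls became 27 from 10 arrays alone and 19 to 96 with 1 left out, 19 without replicate 2 of NRCWE-001, and at 162 µg leaving out 1 gave 0 to 0. The interaction called 2 with slide as a fixed block and 0 to 0 with 1 array left out. The slide differences within NRCWE-001 gave 428 with scanner signals and 88 to 930 with 1 array left out, slides within NRCWE-002 75 to 1600, and the vehicle comparison 0 to 144, 144 without vehicle replicate 4. On the shared slides the median of Bicluster 4 was 0.0205 and that of olfactory receptors -0.0048. Of the other alternatives, 32 counts stayed within 1.5 times, and 286 list medians moved by less than 1 SD of the list mean between mice of a group, some of them across 0, as for acute phase and club cell genes. Named genes kept direction and call in 266 alternatives and lost the call in 210. The causes were not tested. No paired analysis was possible because the labels give no replicate numbers that groups share, and those used here follow accession order.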
